A study of Streblospio benedicti with 24 samples.

Results

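Housekeeping genes are used to put RNA libraries on a common scale, and 4 of them are described here: beta-Tubulin Sbene_G04390, beta-Tubulin Sbene_G09986, beta-Actin Sbene_G10277 and glyceraldehyde-3-phosphate dehydrogenase (GAPDH) Sbene_G16356 of the marine annelid *Streblospio benedicti*. They were taken from the housekeeping genes the study lists for normalization, and their counts were read from all 24 oocyte libraries. They are 4 of the 26216 genes counted. GAPDH was the steadiest of the 4 between libraries. Actin had no count in 13 of the 24 libraries, and those were the 13 that carry a label of 2 technical replicates.

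The species has a morph with small eggs and feeding, planktotrophic larvae (genotype PP, Bayonne, New Jersey) and a morph with large, yolky eggs and lecithotrophic larvae (genotype LL, Long Beach, California). The reciprocal crosses of the morphs gave F1 females, PL and LP, with the maternal allele written first. Unfertilized oocytes were dissected from lab-bred females kept in isolation, and the whole clutch of a female was pooled into a library, which gave 7 PP, 7 LL, 5 PL and 5 LP libraries. The age of the females is not given in the sources used here. Each morph came from 1 population, so morph and population cannot be told apart. The label of 2 technical replicates is on PP replicate 7, LL replicates 6 and 7, and all 10 F1 libraries. The F1 libraries were also sequenced separately from the parental ones, so sequencing run and cross cannot be told apart. The tissue label could not be checked against marker genes, because the files pair no identifier with a name.

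An oocyte stores maternal mRNA that the early embryo uses before its own genome is active. Alpha- and beta-tubulin form the dimers of which microtubules are built, and microtubules make up the meiotic spindle and the spindles of the cleavage divisions. Actin forms the filaments of the egg cortex and of the contractile ring that divides a cell. GAPDH is an enzyme of glycolysis. All are used in many cells and at many stages, which is why they are common reference genes. Tubulins and actins usually form families of similar genes, and reads that align equally well to several copies are left out by the counter used here, so the count of 1 copy can depend on how reads were aligned.

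The number of counts on genes was lowest at 7489256 and highest at 43609048, and the median library had 19499123. Levels are given as normalized counts, which are the counts divided by DESeq2's median-of-ratios size factor of the library over all 24 libraries. These levels are not divided by gene length, so they are compared between libraries and not between genes. They are relative to the rest of the mRNA in a library, so they do not give the amount of an mRNA per egg. The quasi-likelihood F-test of edgeR was used for all fold changes, with Benjamini-Hochberg adjusted p-values over all genes tested. A gene is called where its fold change is over 1.5 and its adjusted p is at most 0.05 (PP against LL, and the label) or under 0.1 (comparisons with F1 libraries). 3 of the 4 genes passed the filter on low counts, and Sbene_G09986 did not.

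**Figure D1:**
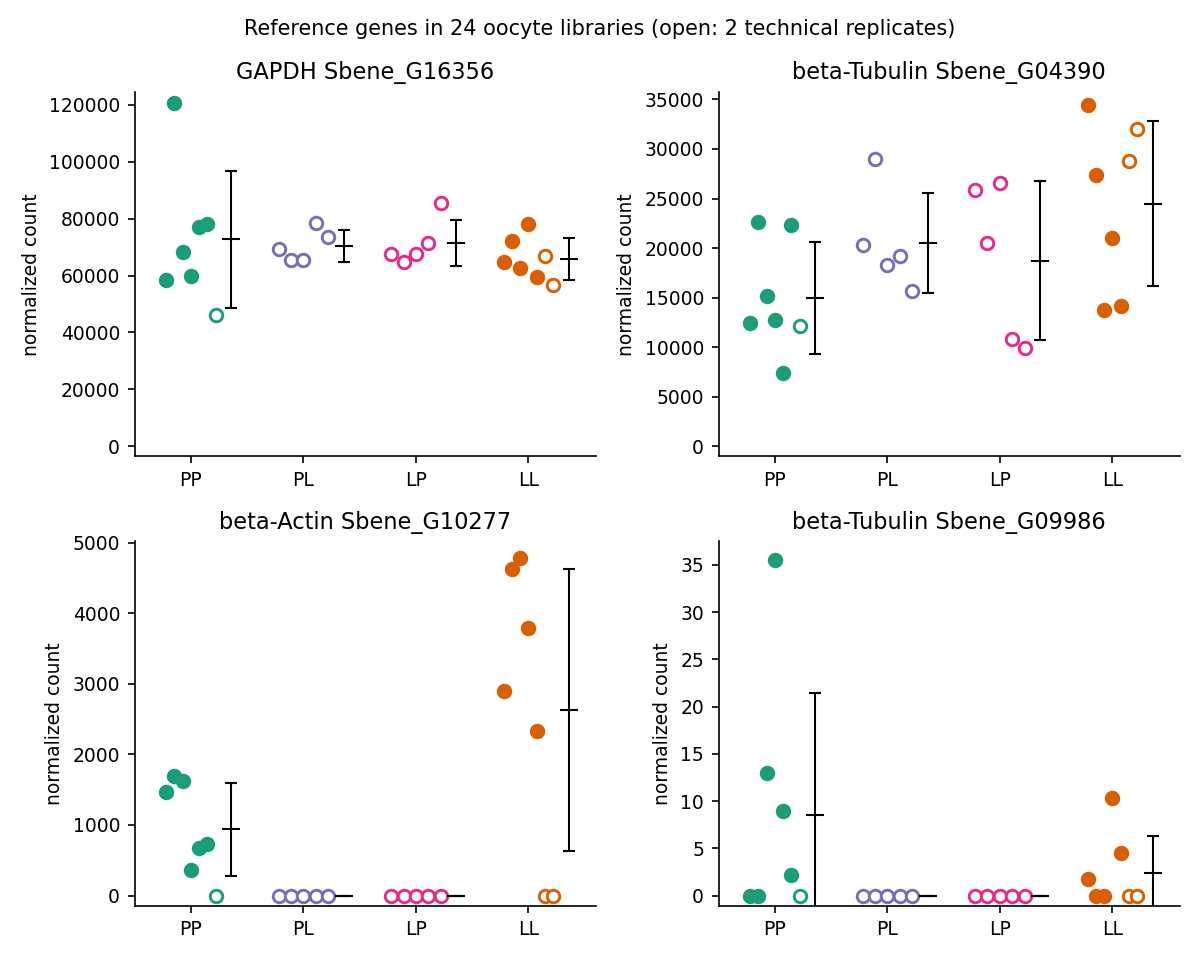
Normalized counts (y axis, linear, a scale per panel) of the 4 reference genes in each of the 24 libraries by genotype. Open points carry the label of 2 technical replicates, and bars are the mean and SD of a group. GAPDH lies between 45980 and 120812 in all groups, tubulin Sbene_G04390 overlaps between groups, and actin is at 0 in all 13 open points.

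GAPDH levels overlapped between all 4 groups, and the PP libraries varied most. In PP its normalized count was 45980 at the lowest, 68312 at the median and 120812 at the highest. In LL the lowest was 56538, the median 64759 and the highest 78190. The range of LL lay inside that of PP, and 1 PP library, replicate 2, was above every other library of the study.

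The 5 PL libraries had 69327, 65392, 65370, 78578 and 73424 normalized counts of GAPDH, and the 5 LP libraries had 67723, 64925, 67602, 71286 and 85381. Apart from LP replicate 5 at the top and LP replicate 2 at the bottom, the LP values lay within the PL range. The mean was 72698 ± 24035 in PP (SD, n = 7), 71384 ± 8145 in LP (SD, n = 5), 70418 ± 5647 in PL (SD, n = 5) and 65765 ± 7433 in LL (SD, n = 7). In that order no neighbours differed beyond their spread, and over all 6 pairs of groups the smallest p of a two-sided exact permutation test was 0.232 before adjustment. The coefficient of variation was 33.1% in PP against 11.3% in LL, 8.02% in PL and 11.4% in LP. Without PP replicate 2 the PP mean was 64678 ± 12370 (SD, n = 6) and its coefficient of variation 19.1%. That library also had the largest share of reads that did not align, at 66.1%, and the part of this in its GAPDH level was not tested. Without PP replicates 2 and 7 the coefficient of variation of PP was 13.6% (n = 5). PP replicate 7, the lowest PP library at 45980 normalized counts, carries the label of 2 technical replicates.

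GAPDH was called in none of the comparisons. The log2 fold change of PP over LL was 0.14 (SE 0.17, adjusted p = 0.730, edgeR), and that of PL over LP was 0.01 (SE 0.17, adjusted p = 0.993, edgeR). The F1 mean differed from PP by -0.03 on the log2 scale (SE 0.13, adjusted p = 0.949, edgeR) and from LL by 0.13 (SE 0.13, adjusted p = 0.722, edgeR). The label of 2 technical replicates within PP and LL went with a log2 difference of -0.33 (SE 0.21, adjusted p = 0.583, edgeR). GAPDH took between 0.277% and 0.571% of all counts on genes in every library.

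The beta-Tubulin Sbene_G04390 had a lower mean in PP than in LL oocytes, and the difference did not pass the threshold across all genes. In PP the lowest normalized count was 7394, the median 12769 and the highest 22607. In LL the lowest was 13742, the median 27421 and the highest 34401. The groups overlapped, with 4 of 7 LL libraries above every PP library and 4 of 7 PP libraries below every LL library.

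The PL and LP means of this tubulin lay between the parental means, while single F1 libraries lay above the LL mean or below the PP mean. The PL libraries had 20287, 28941, 18302, 19243 and 15622 normalized counts, and the LP libraries had 25856, 20482, 26588, 10815 and 9934. The LP libraries fell apart into 3 above the PL median and 2 below every PL library. The mean was 24489 ± 8324 in LL (SD, n = 7), 20479 ± 5037 in PL (SD, n = 5), 18735 ± 7994 in LP (SD, n = 5) and 14975 ± 5620 in PP (SD, n = 7). No neighbours in that order differed beyond their spread. The 2 ends of the order, PP and LL, gave p = 0.0315 in a two-sided exact permutation test, and 0.189 after adjustment over the 6 pairs of groups.

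For PP against LL, 3.56% of the 9392 genes tested were called, and of the 3 reference genes tested none was. The log2 fold change of tubulin Sbene_G04390 for PP over LL was -0.71 (SE 0.26, adjusted p = 0.159, edgeR). DESeq2 gave an adjusted p of 0.139 for the same contrast. Among the 11 libraries without the label the fold change was -0.49 (SE 0.31, adjusted p = 0.459, edgeR). For PL against LP, where 0.0185% of 10782 genes were called, the log2 fold change was 0.15 (SE 0.32, adjusted p = 0.929, edgeR). The F1 mean differed from PP by 0.39 on the log2 scale (SE 0.25, adjusted p = 0.488, edgeR) and from LL by -0.30 (SE 0.24, adjusted p = 0.619, edgeR). The label of 2 technical replicates went with 0.20 (SE 0.33, adjusted p = 0.888, edgeR).

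**Figure D2:**
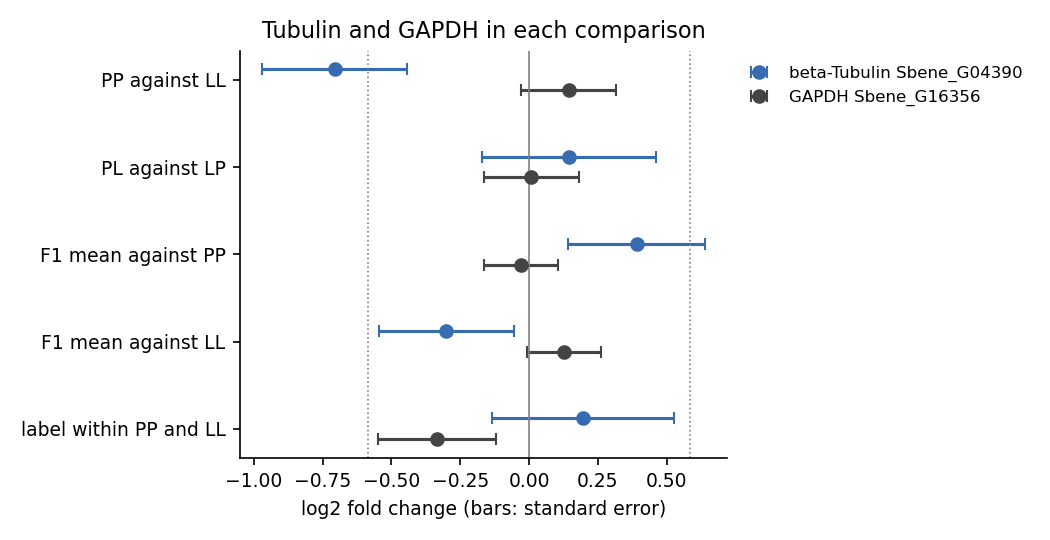
Log2 fold change of tubulin Sbene_G04390 (blue) and GAPDH (grey) in each of the 5 comparisons, with the standard error from edgeR as bars; dotted lines mark a 1.5-fold change. Only tubulin in PP against LL, at -0.71, lies past a dotted line, and no point passed the adjusted threshold.

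The ratio of 2 genes within a library needs no scaling to other genes, so it shows directly whether reference genes kept step. The log2 ratio of the tubulin Sbene_G04390 count to the GAPDH count was lower in PP than in LL. It averaged -2.31 ± 0.52 in PP, between -3.38 and -1.81 (SD, n = 7), and -1.50 ± 0.56 in LL, between -2.19 and -0.82 (SD, n = 7). The difference of -0.81 is 1.75-fold and gave p = 0.0140 in a two-sided exact permutation test, or 0.0280 after adjustment over the 2 comparisons of this ratio. The groups overlapped, and the ratio does not show which of the genes moved. Among the libraries without the label the difference was -0.68 (p = 0.0498, exact permutation test, 6 PP and 5 LL). With any library left out it stayed between -0.92 and -0.63. PL and LP had ratios of -1.81 ± 0.40 and -2.04 ± 0.81 (SD, n = 5 each), a difference of 0.24 that did not exceed the spread (p = 0.556, exact permutation test).

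**Figure D3:**
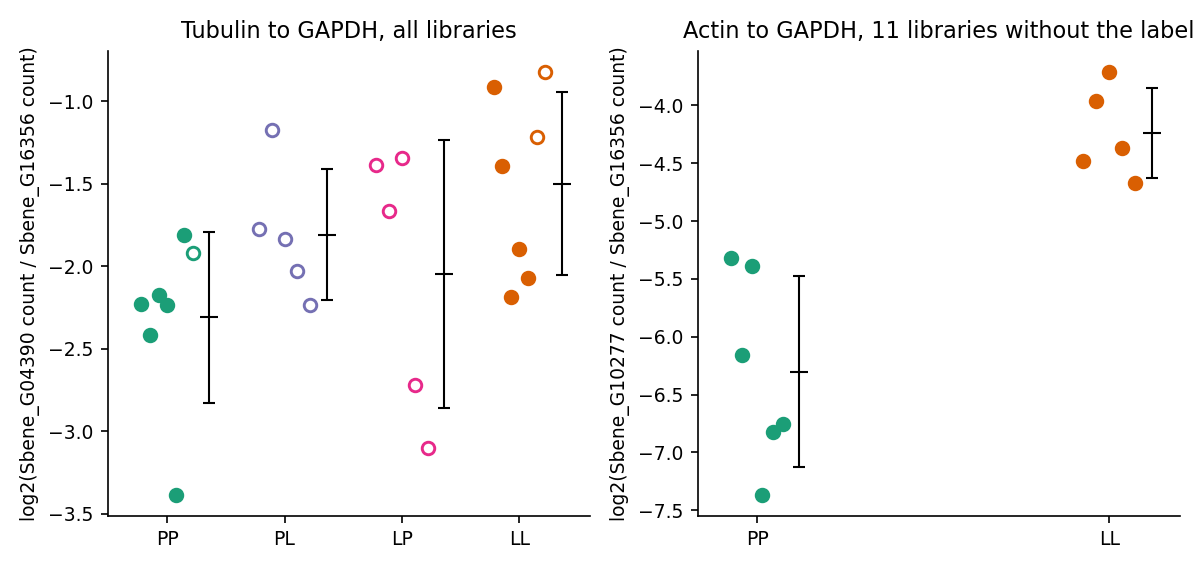
Log2 ratio of counts within a library (y axis) by genotype, for tubulin Sbene_G04390 to GAPDH in all 24 libraries (left) and for actin Sbene_G10277 to GAPDH in the 11 unlabelled libraries (right); open points carry the label of 2 technical replicates, and bars are the mean and SD. Tubulin to GAPDH overlaps between PP and LL, and actin to GAPDH does not, with the highest PP value at -5.32 and the lowest LL value at -4.67. How many other genes show no overlap was not counted.

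The beta-Actin Sbene_G10277 was either well counted or not counted at all. The PP replicates 1 to 6 had 1464, 1694, 1627, 364, 680 and 726 normalized counts. The LL replicates 1 to 5 had 2900, 4622, 4782, 3794 and 2333. PP replicate 7, LL replicates 6 and 7, the 5 PL and the 5 LP libraries had 0 counts. Thus the 13 libraries at 0 are exactly those that carry the label of 2 technical replicates, across all 4 genotypes, and the 11 with counts are exactly those that do not.

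The 13 libraries at 0 held 250541260 counts on genes in all. A count of 0 allows up to 3 counts per library, which corresponds to between 1.81 and 6.26 normalized counts, for counting error only. The mean of the 11 other libraries, 2272 normalized counts, was at least 363-fold higher than the highest of these limits, and the lowest of the 11 was at least 58.2-fold higher. The label within PP and LL was called for actin (adjusted p = 6.78e-07, edgeR), where 0.767% of 9392 genes were called, and of the reference genes tested only actin was. This call restates the zeros already described and is no separate support for them. The fitted fold changes against groups at 0 depend on the prior count of the fit, and no size is read from them.

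The F1 libraries all carry the label, and most parental libraries do not. Against PP 3.42% of 10782 genes were called, and among the 3 reference genes tested only actin (adjusted p = 0.00467, edgeR). Against LL 2.52% were called, and again only actin among the 3 (adjusted p = 0.00503, edgeR). Both calls of actin restate the zeros of the labelled libraries. With the label as a covariate these comparisons rest on labelled libraries that are all at 0, so they hold no information on actin. Since PL and LP were both at 0, actin gave no comparison between them.

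Among the libraries without the label, actin was lower in PP than in LL oocytes. Normalized counts averaged 1093 ± 569 for PP (SD, n = 6) and 3686 ± 1065 for LL (SD, n = 5), and every LL library was above every PP library. The share of all genes without overlap between these libraries was not counted, so this separation is a description only. In a fit of these 11 libraries the log2 fold change of PP over LL was -1.73 (SE 0.36, adjusted p = 0.0294, edgeR), where 2.5% of the 9503 genes tested were called. Before adjustment, 17.4% of these genes had p under 0.05 (edgeR). With the label as a covariate in all 14 libraries the log2 fold change of actin was -1.75 (SE 0.37, adjusted p = 0.0225, edgeR), where 3.48% of genes were called. The labelled PP and LL libraries are all without actin counts. The estimate with the covariate therefore rests on the same 11 libraries and is no second result. Without the covariate the 14 libraries gave -1.49 (SE 1.26, adjusted p = 0.592, edgeR). The fit of 11 lost the call without PP replicate 5 (-1.63, adjusted p = 0.0680, edgeR), PP replicate 6 (-1.68, adjusted p = 0.0652, edgeR), LL replicate 2 (-1.64, adjusted p = 0.0789, edgeR) or LL replicate 3 (-1.64, adjusted p = 0.0686, edgeR). Without any of the other 7 it was kept.

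The ratio to GAPDH gave the same order. The log2 ratio of actin to GAPDH averaged -6.30 ± 0.83 in PP (SD, n = 6) and -4.24 ± 0.39 in LL (SD, n = 5). The difference of -2.06, or 4.18-fold, gave p = 0.00433 in a two-sided exact permutation test, where the smallest p that the design allows is 0.00216. With any library left out the difference stayed between -2.26 and -1.85. This ratio was added after the levels had been seen without overlap between the groups, so its p is not independent of them.

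The second beta-Tubulin, Sbene_G09986, was hardly counted in any library. PP replicates 3, 4, 5 and 6 had 28, 40, 7 and 5 counts, and LL replicates 1, 4 and 5 had 1, 11 and 5 counts. All other libraries had 0, among them all 13 with the label. Only 4 libraries, PP replicates 3, 4 and 5 and LL replicate 4, were above 6.26 normalized counts, the highest limit that a count of 0 allows in a labelled library. Its highest normalized count was 35.5 in PP and 10.4 in LL, and the group means were 8.52 and 2.38. A fit without the filter gave a log2 fold change of 1.84 for PP over LL (adjusted p = 0.488, edgeR), where 1.84% of 17898 genes were called. For the label, where 1.76% were called, the adjusted p was 0.271 (edgeR). For the F1 mean against PP, where 1.66% of 19581 genes were called without the filter, Sbene_G09986 was called lower in F1 (adjusted p = 0.0674, edgeR), and for the F1 mean against LL, where 1.36% were called, it was not (adjusted p = 0.159, edgeR). DESeq2 gave an adjusted p of 0.101 for the F1 mean against PP and did not call it. All counts behind that comparison came from PP libraries without the label, so cross and label cannot be told apart in it.

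In the labelled libraries 2 of the 4 genes had no count. The same held for 600 of the 19581 genes with a count in some library, these 2 included. The reads that HTSeq did not assign were therefore compared by label within PP and LL, 3 libraries against 11. Reads that overlapped more than 1 gene made up 0.295% of all reads with the label and 0.146% without, and every labelled library was above every other (p = 0.00275, two-sided exact permutation test, the smallest the design allows, 0.00824 adjusted over 6 categories). Reads of low alignment quality made up 6.99% with the label and 4.12% without (p = 0.00275, exact permutation test, 0.00824 adjusted). The F1 libraries lay between 0.218% and 0.325% for the former and between 6.71% and 8.85% for the latter. Reads that aligned to several places, 2.05% with and 1.90% without the label, did not differ beyond the spread (p = 0.607, exact permutation test), nor did the share assigned to genes, 31.1% and 27.4% (p = 0.434, exact permutation test). The part of these categories in the counts of actin was not tested.

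Actin was not alone in this pattern. Of the 5224 genes above 50 normalized counts in every library without the label, 7 had no count in any labelled library, or 0.134%, actin included. Among them were Sbene_G10774, with a mean of 43764 normalized counts in the libraries without the label, and Sbene_G02080, with a mean of 5245. The reverse pattern, no count without the label and more than 50 normalized counts in every labelled library, was found for 0 genes. This count is a description, and no test was made of it.

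Between libraries of a group, GAPDH varied less than most genes and actin more than nearly all. The SD of log2(normalized count + 1) within groups was 0.27 for GAPDH, and 2.59% of 10782 genes had a smaller one. It was 0.55 for tubulin Sbene_G04390, with 28.0% of genes below it, and 3.79 for actin, with 99.9% below it. The median of all genes was 0.90. When the means of labelled and unlabelled libraries were removed within each group, the SD of actin was 0.51, with 25.7% of genes below it.

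Genes of a high level were also compared among themselves. Among the 617 genes with a mean of at least 5000 normalized counts the median SD was 0.38. Of these, 18.0% were steadier than GAPDH and 76.8% were steadier than tubulin Sbene_G04390. The mean deviation of log2 GAPDH from the group median was 0.31 in PP and 0.12 in LL, a difference that did not pass the test (p = 0.119, two-sided exact permutation test). The difference of 0.19 became 0.24 without PP replicate 3 (p = 0.0221, exact permutation test) and 0.11 without PP replicate 2 (p = 0.148, exact permutation test). For tubulin the deviations were 0.40 and 0.42 (p = 0.921, exact permutation test).

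**Figure D4:**
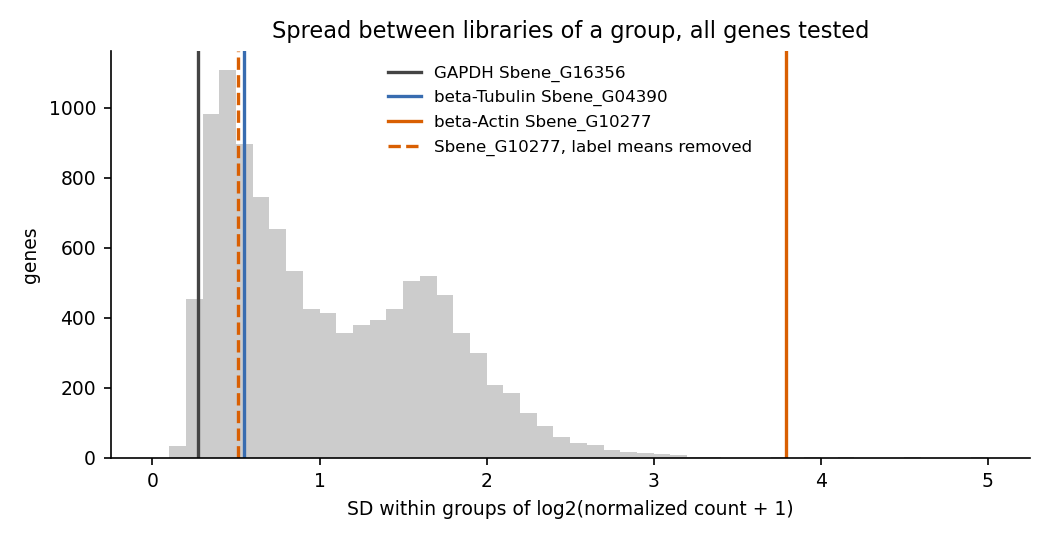
Histogram of the SD within groups of log2(normalized count + 1) over the 10782 genes tested (y axis, genes per bin), with vertical lines at the reference genes. GAPDH at 0.27 lies near the left end, tubulin Sbene_G04390 at 0.55 and actin with label means removed at 0.51 lie left of the median of 0.90, and actin itself lies at 3.79.

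A reference gene sets the scale of every other gene, so the fits were repeated with each library scaled to GAPDH or to tubulin Sbene_G04390 in place of TMM. For PP against LL, TMM gave 334 calls, 176 higher in PP and 158 higher in LL. Scaled to GAPDH there were 145 calls, 54 higher in PP and 91 in LL, and 143 of them were shared with TMM. Scaled to tubulin there were 1072 calls, 999 higher in PP and 73 in LL, of which 245 were shared with TMM. The median log2 fold change of all genes moved to 0.73 under the tubulin scale and to -0.03 under the GAPDH scale. Scaling to a gene shifts the log2 fold changes of all others by about that gene's own difference. The median and the tilt to PP under the tubulin scale thus follow from the lower tubulin level in PP and are no separate result.

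These counts depended on single libraries. With a library left out, the GAPDH scale gave 76 (without LL replicate 2) to 270 (without PP replicate 3) calls, and 23.0% to 51.7% of them were higher in PP. The split turned only without PP replicate 2, with 123 of 238 calls higher in PP. The tubulin scale gave 337 (without LL replicate 2) to 1661 (without PP replicate 2) calls, and 85.5% to 95.7% of them were higher in PP. Among the 11 libraries without the label, the tubulin scale gave 155 calls, 115 of them higher in PP, and the GAPDH scale gave 124, 39 of them higher in PP.

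For the F1 mean against PP, TMM gave 369 calls, the GAPDH scale 235 and the tubulin scale 779. Of the latter, 141 were higher in F1 and 638 in PP, against 205 and 164 with TMM. For the F1 mean against LL, TMM gave 272 calls, 117 higher in F1 and 155 in LL. The GAPDH scale gave 193, of which 36 were higher in F1 and 157 in LL, and the tubulin scale gave 122, split into 60 and 62. The median log2 fold change of all genes moved to -0.43 against PP and 0.28 against LL under the tubulin scale, and to -0.08 and -0.14 under the GAPDH scale.

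The 4 genes were then used together, as in the RUVg method, in which the main axis of variation of the control genes enters the model as a covariate. With these 4 genes that axis followed actin. Actin carried 97.0% of its squared weights, tubulin Sbene_G09986 2.96%, tubulin Sbene_G04390 0.0248% and GAPDH 0.00254%. The axis held 93.8% of the variation of the 4 genes. Its values lay between -0.187 and -0.186 in the 13 labelled libraries and between 0.160 and 0.269 in the 11 others, without overlap. Among the 11, PP lay between 0.160 and 0.230 and LL between 0.239 and 0.269, so the axis also differed by morph. Since the axis is nearly actin, this restates the actin levels of PP and LL.

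With this covariate the F1 mean differed from PP in 39 genes in place of 369, and 23 of the 39 were shared. It differed from LL in 8 genes in place of 272, and all 8 were shared. The label itself as a covariate gave 15 and 8 calls. All F1 libraries carry the label, so with either covariate these comparisons rest largely on the 3 labelled PP and LL libraries. Whether lost precision had a part in the lower number of calls was not tested. For PP against LL, in which most libraries carry no label, the axis was computed from these 14 libraries alone. As a covariate it gave 389 calls, and 314 were shared with the 334. The study's list of housekeeping genes holds further genes, which were not used here, so these values are for the 4 genes alone.

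**Figure D5:**
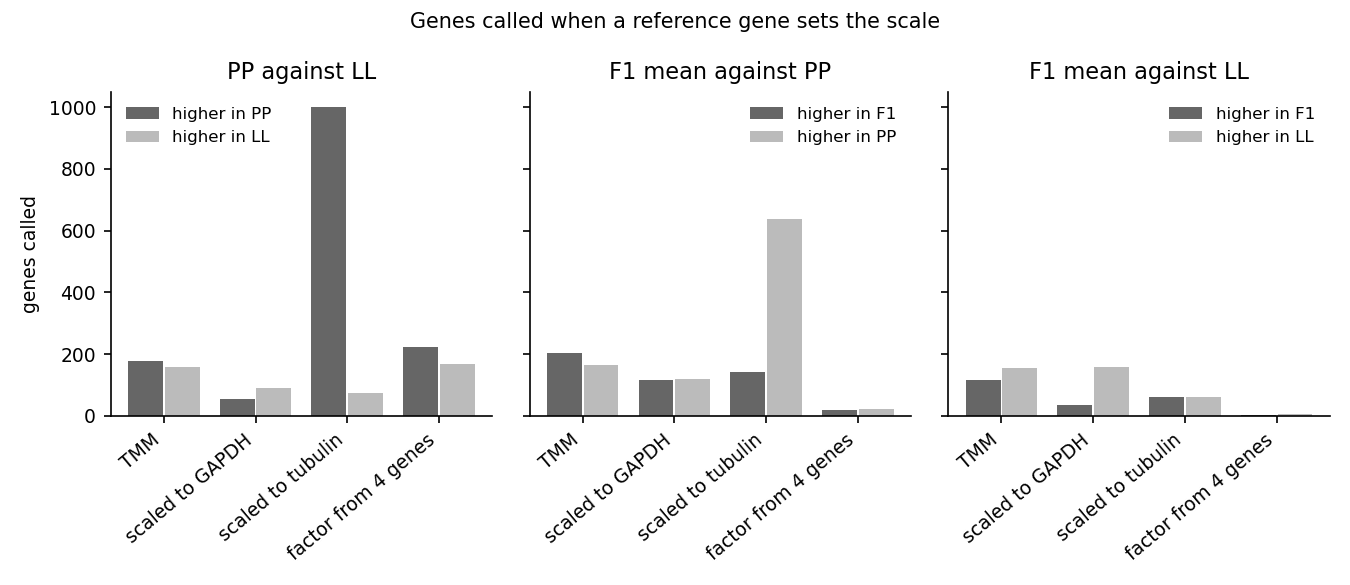
Number of genes called (y axis) in PP against LL, F1 mean against PP and F1 mean against LL, with TMM, with libraries scaled to GAPDH or to tubulin Sbene_G04390, and with the covariate from the 4 genes; dark and light bars are the 2 directions. Scaling to tubulin gave 999 calls higher in PP than in LL, a tilt that follows from the lower tubulin level in PP. The covariate left 39 and 8 calls in the F1 comparisons.

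GAPDH and tubulin Sbene_G04390 did not rise and fall together. Over the 24 libraries, the Spearman correlation of log2(normalized count + 1) was -0.02 between GAPDH and tubulin Sbene_G04390, 0.02 between GAPDH and actin, and 0.00095 between tubulin Sbene_G04390 and actin. Between actin and tubulin Sbene_G09986 it was 0.53, and these share their zeros in the labelled libraries. Actin is tied at 0 in the 13 labelled libraries, so each of its correlations depends in part on the label. They were not computed among the 11 other libraries alone. These correlations, and those that follow, are descriptions over libraries that share groups and label.

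Among the 10782 genes tested, those most like GAPDH in the order of the 24 libraries were Sbene_G06123 with a Spearman correlation of 0.86 and Sbene_G05618 with 0.85. Most like tubulin Sbene_G04390 were the non-coding Sbene_nc_G19158 and Sbene_nc_G18983, with 0.77 each, at low means of 16.7 and 7.53 normalized counts. Most like actin were Sbene_nc_G09634 with 0.96 and Sbene_G13718 with 0.94, at means of 64.6 and 8.45 normalized counts. Most like tubulin Sbene_G09986 were Sbene_G00458 with 0.80 and Sbene_G10433 with 0.74, at means of 6.79 and 124 normalized counts. Sbene_G10433 is also 1 of the 7 genes above 50 normalized counts in every unlabelled library that had no count under the label.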

How the data were processed

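Oocyte mRNA of 24 clutches was measured by RNA-seq. Libraries were made with the NEB UltraII Stranded kit, and according to the Methods the authors trimmed reads with TrimGalore, removed rRNA reads with SortMeRNA, used HISAT2 for alignment to the reference genome, which is of a planktotrophic worm, and HTSeq for counting. The strand setting of HTSeq, how technical replicates were joined, and the versions of the alignment and counting tools are not given in the sources used here. The deposited values are raw counts per gene for 26216 genes, without normalization. The 5 special counters of HTSeq were left out of library sizes and tests. Reads assigned to genes were 12.9% to 37.1% of all reads. At 7489256 to 43609048 counts per library, precision is set by the spread between clutches, except for genes near 0.

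The PP against LL contrast came from a fit of 14 libraries, F1 contrasts in a fit of 24 with 4 group means, and the label in a fit of 14 with group. The quasi-likelihood F-test of edgeR 4.0.16 was run in R 4.3.3 after TMM and filterByExpr. The filter kept 9392 and 10782 genes. Fits were tested on simulated data with 200 changed genes. Ratios, spread and read categories were compared with two-sided exact permutation tests. Alternatives were DESeq2 1.42.0, median of ratios, no filter or a mean count of at least 10, scaling to 1 gene, 1 factor from the 4 genes, the label as covariate, other sets of libraries, a replicate block and each library left out. Genes named are the 4 genes, the 2 most correlated with each, and at most 2 with the zero pattern of actin, besides Sbene_G10433, which falls under both. The genes, lists and tests were chosen with earlier results of these data known. According to the Methods each library is a clutch of 1 female. Some sample names share a stem whose meaning is not given, so whether those libraries are independent is not known. No replicates agreed within sampling noise (62 pairs, smallest chi-square per gene 63.8). Gene annotation was not used here.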

Additional observations from a re-analysis of the deposited data

Results flagged for a closer look

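In 16 groups of 5 or 7 libraries, 3 values lay far from the rest by Dixon's 95% criterion. Chance meets it in about 1 group in 20 if values are normally distributed. Levels entered as normalized counts without log2, and whether their flags hold on the log2 scale was not tested. GAPDH in PP replicate 2, at 120812 normalized counts, lay far above the other PP libraries. Tubulin Sbene_G09986 in PP replicate 4 was at 35.5 normalized counts, far above the others. The log2 ratio of tubulin Sbene_G04390 to GAPDH in PP replicate 5 was -3.38, far below the other PP libraries.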

How the results depend on the processing

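Neither GAPDH nor tubulin Sbene_G04390 was called in any of the 5 comparisons under any alternative run, and the tubulin to GAPDH ratio kept its direction and side of 0.05 for PP against LL. Counts of calls moved most. DESeq2 gave 1058 calls for PP against LL, 104 for PL against LP, 887 for F1 against PP, 708 for F1 against LL and 485 for the label, where edgeR gave 334, 2, 369, 272 and 72. No filter gave 5 for PL against LP and 315 for the label, and a mean count of at least 10 gave 116 for the label. Scaling to GAPDH gave 145 and 235 for PP against LL and F1 against PP, and scaling to tubulin 1072, 0, 779 and 122 for PP against LL, PL against LP, F1 against PP and F1 against LL. The factor gave 39 and 8 for F1 against PP and LL, and 2 for the label. The label as covariate gave 15 and 8 for F1 against PP and LL, and labelled libraries alone gave 34 for F1 against LL. Only 1 PP library carries the label, so no count is given for F1 against PP in labelled libraries alone. All 24 libraries in a fit gave 603 for PP against LL, and the F1 libraries alone 0 for PL against LP, where 734 genes had p under 0.05 without adjustment (edgeR). DESeq2 was not fitted to the F1 libraries alone.

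Replicate numbers did not pair the samples: deviations of same-numbered PP and LL libraries correlated between -0.00095 and 0.44, above 0.1 in 2 of 7 pairs, and 2 of 7 correlated best with their own number. For PL and LP 3 of 5 pairs were above 0.1 (lowest -0.09, highest 0.20), and 2 of 5 correlated best with their own number. The replicate block gave 171 calls for PP against LL, 1 for PL against LP, 634 for F1 against PP, 676 for F1 against LL and 12 for the label, and turned tubulin Sbene_G04390 under the label to -0.45 (adjusted p = 1, edgeR). It changed no call of the 3 genes fitted.

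With 1 library left out, PP against LL gave 170 to 506 calls, moved over 1.5 times without PP replicates 3, 5 (199) and 6 (187) or LL replicates 1 (206), 2 and 3 (189). PL against LP gave 0 to 8, with 5 without PP replicate 3, 4 without LL replicate 7, 6 without PL replicate 1, 8 without PL replicate 2, 1 without LP replicate 1 and 0 without LP replicate 3. F1 against PP gave 225 (without PL replicate 4) to 694 (without PP replicate 7), with 240 without PP replicate 6. F1 against LL gave 119 (without LL replicate 2) to 372, with 159, 150 and 176 without LL replicates 1, 3 and 4 and 177 and 176 without PL replicates 3 and 4. The label gave 42 (without LL replicate 7) to 125 (without PP replicate 3), with 120 without PP replicate 5. Scaled to GAPDH, PP against LL gave 76 to 270, and scaled to tubulin 337 to 1661, or 155 among libraries without the label.

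Actin for PP against LL was called at -1.75 with the label as covariate and at -1.73 in libraries without the label. Both estimates rest on the same unlabelled libraries, since the labelled ones were all at 0. The factor is nearly actin itself, so the fitted actin values with it say nothing of actin (0.18 for PP against LL, -0.24 and -0.031 for F1 against PP and LL, and -0.45 for the label). Nor do those of F1 with the label as covariate (1.36 and -0.37), which rest on labelled libraries all at 0. Under the label, tubulin Sbene_G04390 turned to -1.65 with the factor. Small differences changed sign without being called. For PL against LP, GAPDH went to -0.020 with DESeq2, -0.020 with the median of ratios, -0.00029 with a mean count of at least 10, -0.38 scaled to tubulin and -0.10 with libraries summed, and to between -0.038 and 0.080 with a library left out, and tubulin to between -0.022 and 0.32. For F1 against PP, GAPDH went to 0.22 with the factor and 0.26 with the label as covariate. In labelled libraries alone, where PP replicate 7 is the only PP library, GAPDH went to 0.60. It went to 0.00026 without PP replicate 6, and from -0.11 to 0.11 (without PP replicate 2) with a library left out. The PL against LP ratio ranged from -0.029 to 0.41. The PP minus LL spread of tubulin ranged from -0.097 to 0.070 and that of GAPDH from 0.11 to 0.24. As shares of aligned reads, reads assigned, without a gene and aligned to several places differed by -1.56, -1.09 and -0.27 percentage points with the label. The causes of these shifts were not tested.

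Chosen after seeing the data, 2 groups of libraries whose sample names share a stem, and which might share a source, were summed, which gave 213 calls for PP against LL (PP replicates 5 and 6) and 0 for PL against LP (F1 libraries by letter), where 206 genes had p under 0.05 without adjustment (edgeR). The fits of unlabelled or scaled libraries without each library, the actin ratio and the SD without label means (0.51 for actin against 3.79) were chosen then too. Depth limits tubulin Sbene_G09986, which stayed at or under 40 counts.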
